A study of Mus musculus with 22 samples.

Results

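Wild-type (WT) spinal cords taken 3 weeks after contusion were compared with cords of naïve WT mice across all genes. Members were chosen by the group of each mouse, not by any measured value. The comparison drew on 9 of the 22 arrays of the series, which held 2 WT mice at 3 weeks on 4 arrays and 3 naïve WT mice on 6 arrays. One array held both groups directly (naïve mouse 2 in Cy5 against 3-week mouse 1 in Cy3), and the other arrays linked the groups through other mice. All mice were females of a C57BL/6 background, aged 3 to 4 months per the labels. WT mice were littermates of the IκBα-dn line, whose astrocytes carry a dominant-negative inhibitor of NF-κB under the GFAP promoter, and they lacked this transgene. Injured mice had a contusion of the thoracic cord, and the controls were naïve mice, so that surgery and contusion cannot be told apart here. IκBα-dn mice and the groups at 3 days and 6 weeks entered the same fit and are cited only where they bear on the 3-week cords. Each array set the RNA of 1 mouse, labelled with Cy5, against that of another, labelled with Cy3, and RNA came from a cord segment centred on the lesion. One array, on which the labels disagree whether a mouse was killed at 3 days or 3 weeks, did not enter the fit.

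A contusion of the cord kills neurons and oligodendrocytes, opens the blood-spinal cord barrier and draws in neutrophils, followed by monocytes. Over the next weeks, monocyte-derived macrophages and resident microglia clear myelin debris and take up its lipid, while astrocytes at the rim become reactive and form a scar together with fibroblast-like cells. These cells express receptors that read complement and antibody on debris, lysosomal proteases, chemokines and antigen-presenting molecules. Interferons induce a further set of genes, many of them antiviral, through factors that bind paired GAAA repeats in promoters.

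At 3 weeks, nearly all genes past the threshold used here were higher in the WT cord than in the naïve cord. Genes of macrophages and microglia, chemokines, complement, Fc receptors and interferon-stimulated genes led the increases, whereas no member of the lists for neurons, myelin, astrocyte identity or vessels was lower beyond the threshold. In numbers, 463 of 43379 probes (1.07%) passed an adjusted p under 0.05 in limma, 435 of them higher and 28 lower (n = 2 mice at 3 weeks, n = 3 naïve). A probe past this threshold is said here to have risen or fallen. They belonged to 307 named genes, 288 higher and 19 lower, and 33 of the probes carried no gene symbol. At an unadjusted p under 0.05 in limma the split was more even, with 2382 probes higher and 1820 lower. With 1 probe standing for each of 19087 genes, 215 genes rose (1.13%) and 14 fell (0.0733%). Increases ranged from 0.63 to 4.73 on the log2 scale with a median of 1.51, and 174 of the 215 exceeded 2-fold. Decreases were small, from −1.42 to −0.54 with a median of −0.69, and 2 of the 14 exceeded 2-fold. At a false discovery rate under 1%, 122 probes passed. The count depended on 3-week mouse 2 more than on mouse 1. Without WT 3-week mouse 2 only 1 probe passed, that of Colec10, and without mouse 1 the count was 268. All 463 probes kept their sign in each of these refits, which reuse arrays of the fit that chose them.

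**Figure D1:**
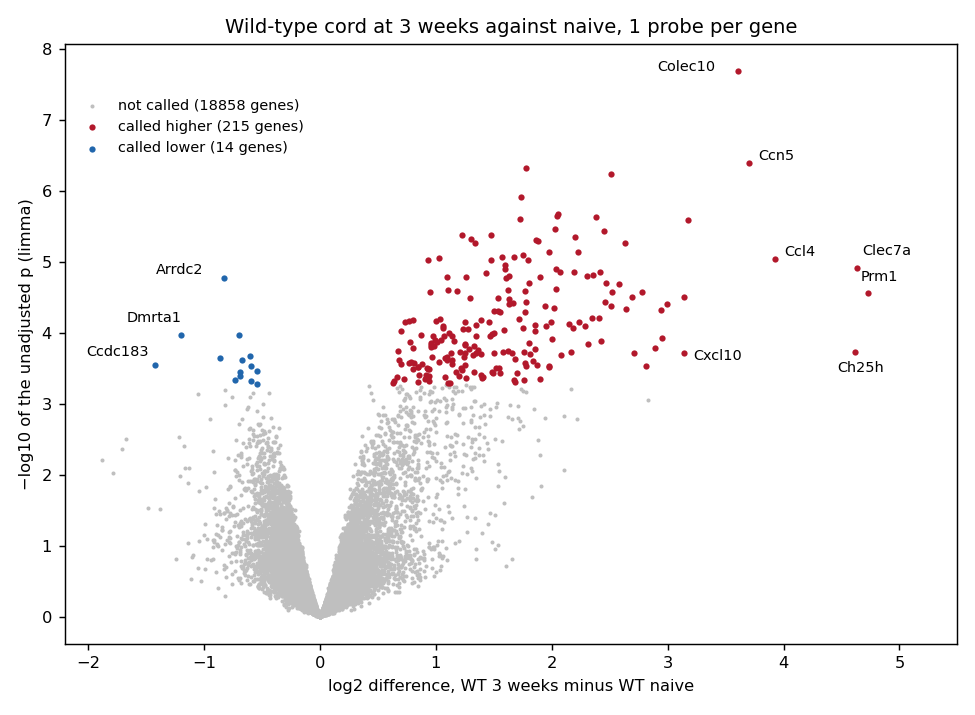
Each point is 1 of 19087 genes, with the fitted log2 difference (WT at 3 weeks minus WT naïve) on the horizontal axis and −log10 of the unadjusted limma p on the vertical axis. The 215 genes in red rose and reach 4.73, whereas the 14 genes in blue fell and end at −1.42.

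Values of single mice come from the same fit with a term for each mouse, on a log2 scale relative to the mean of the 3 naïve mice. In all 463 probes both 3-week mice lay on the same side of all 3 naïve mice, a separation also seen in 28.3% of all probes measured. Among all probes so separated, 5108 were higher at 3 weeks and 7178 lower. All 463 had the sign of the fit on the array that held both groups. That array was part of the fit that chose these probes, so its sign is no independent check. Mice within a group were not alike. Of the 215 genes that rose, 206 (95.8%) were higher in 3-week mouse 2 than in mouse 1, against 56.8% of all genes. In 190 of them (88.4%) naïve mouse 1 was the lowest naïve mouse, against 40.9% of all genes. The array with the largest residuals held this mouse against a 3-day WT mouse (residual SD 0.395, median over arrays 0.287). The median of the 215 genes was −0.35, 0.13 and 0.19 in the naïve mice, and 1.32 and 1.78 in the 3-week mice. The genes were chosen by this difference, so the gap between groups is a description, while the mice of a group differ in how large it is. The direction of the ratios is not stated in the files and was taken as Cy5 over Cy3. The files hold ratios and no levels, so the presence of cord markers could not be read from them. In whole tissue, more cells of a type and more RNA per cell cannot be told apart.

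The gene that rose most was Prm1, a protamine that packs DNA in sperm heads. It stood at −1.22, 0.50 and 0.73 in the naïve mice and at 4.33 and 5.47 at 3 weeks, with a fitted increase of 4.73 (SE 0.82, adjusted p = 0.0099). Only 1 of its 3 probes passed, and the lowest of them gave 1.36. Next came Clec7a, the β-glucan receptor Dectin-1 of myeloid cells. Clec7a read −0.81, 0.83 and −0.02 in naïve cords and 4.58 and 5.11 at 3 weeks, an increase of 4.63 (SE 0.75, adjusted p = 0.00809). Ch25h, the enzyme that turns cholesterol into an oxysterol, rose by 4.62 (SE 0.96, adjusted p = 0.0279). Its error was the largest of the 10. Its naïve mice ran from −1.53 to 1.64, while both 3-week mice (4.45 and 5.65) lay above them. Ccl4, a chemokine for monocytes and lymphocytes, moved from −0.77, 0.52 and 0.25 to 3.62 and 4.57. Ccn5, a secreted matricellular protein, rose by 3.70 (SE 0.46, adjusted p = 0.00312), with 3-week mice at 3.57 and 4.12.

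Colec10, a secreted collectin that binds sugars on microbes, had the smallest p of all probes. Naïve mice gave −0.43, 0.04 and 0.40, and both 3-week mice nearly the same value, 3.65 and 3.58, as did the array of both groups (3.61). Its fitted increase was 3.61 (SE 0.36, adjusted p = 0.000891). Bcl2a1c, of a family of inhibitors of apoptosis with near-identical copies that 1 probe may not separate, rose by 3.18 (SE 0.45, adjusted p = 0.00484). The membrane proteins Ms4a6d and Ms4a6b of immune cells rose by 3.14 and 3.00. Cxcl10, a chemokine induced by interferon, spread more between mice, from −1.03 to 0.97 in naïve cords and at 2.36 and 4.12 after injury (increase 3.14, SE 0.66, adjusted p = 0.028).

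The genes that fell did so by little and in both mice. Ccdc183 fell most, to −1.72 and −1.04 at 3 weeks with all naïve mice within −0.07 to 0.06 (change −1.42, SE 0.31, adjusted p = 0.0353). Dmrta1, a transcription factor of the DMRT family, changed by −1.20 (SE 0.24, adjusted p = 0.0203) and Ssxb1 by −0.86. Arrdc2, an arrestin-domain protein, had the smallest p among the decreases. It read −0.06, 0.13 and −0.07 in naïve mice and −0.71 and −0.90 at 3 weeks (change −0.82, SE 0.14, adjusted p = 0.00835). Kif5a, a kinesin motor of axonal transport in neurons, fell by 0.69 (SE 0.15, adjusted p = 0.0404), to −0.81 and −0.66 from naïve values of 0.06, −0.22 and 0.16. Fn3k, a kinase that removes sugar adducts from proteins, fell by 0.69 and Slc5a11, a sodium-coupled inositol transporter, by 0.67. Lancl3, the organic anion transporter Slco4a1 and the ETS factor Etv4 completed the 10, with changes of −0.73, −0.70 and −0.60.

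**Figure D2:**
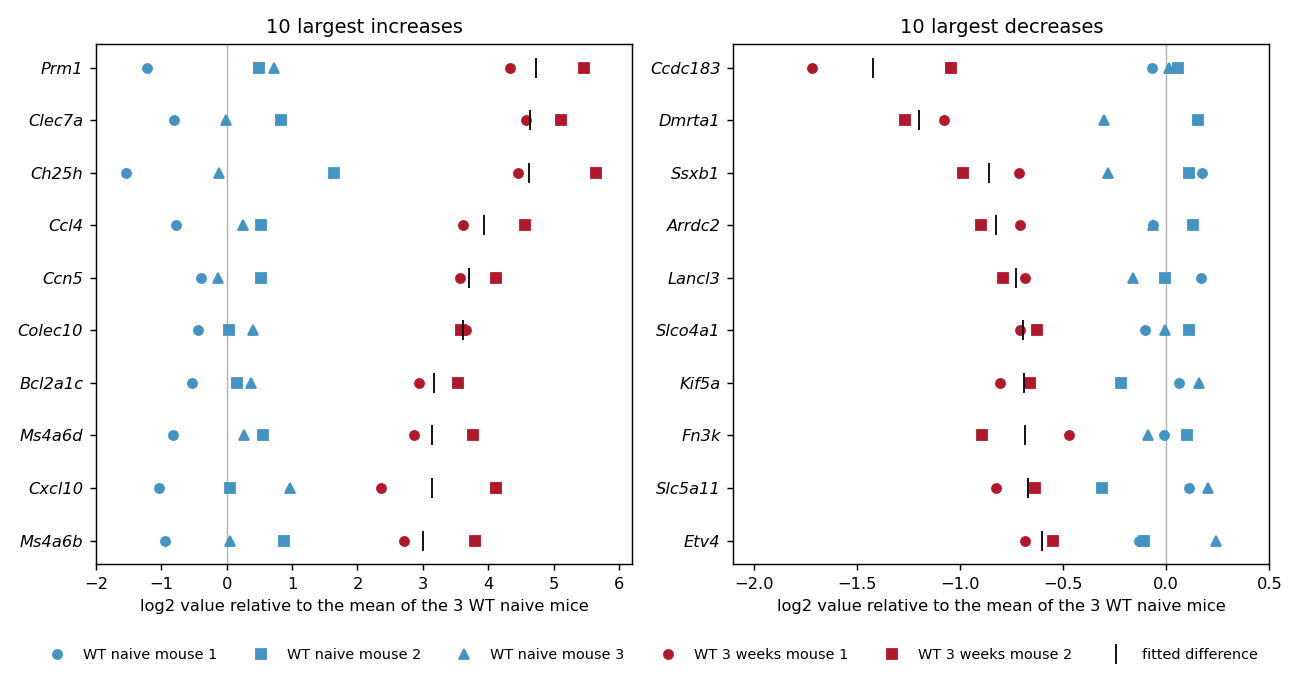
The 10 largest increases (left) and the 10 largest decreases (right), 1 row per gene, with the log2 value of each mouse relative to the mean of the 3 naïve WT mice on the horizontal axis. Blue symbols are naïve mice, red symbols 3-week mice and black bars the fitted difference. In every row both red symbols lie beyond all blue ones, and in the left panel mouse 2 (squares) lies right of mouse 1 except for Colec10.

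Genes were then read in 38 lists by cell type and pathway and in a list of genes that the study follows. No member of any list fell by its standing probe. Over all genes the median difference was −0.01 with 1.13% risen, and this is the background for each list.

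Markers of microglia and macrophages had a median of 0.97, and all 17 measured members were above 0. Of these, 5 rose (Fcgr1, Ptprc, Adgre1, Irf8 and Spi1). Ptprc, the leukocyte phosphatase CD45, read −0.54, 0.48 and 0.06 in naïve mice and 2.46 and 2.96 at 3 weeks (increase 2.58, SE 0.44, adjusted p = 0.00913). Adgre1, the macrophage antigen F4/80, went from −0.62, 0.41 and 0.21 to 2.40 and 3.14 (increase 2.64, SE 0.48, adjusted p = 0.0133). Spi1, which encodes the myeloid factor PU.1, rose by 0.91 and Irf8, its partner in microglia and monocytes, by 1.21. Genes that mark resting microglia were at lower values and did not pass, with P2ry12 at 0.58 (adjusted p = 0.19), Tmem119 at 0.62 and Siglech at 0.44. Without 3-week mouse 2 the median of the list was 0.77 with 0 members past the threshold, and without mouse 1 it was 1.21 with 3.

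Receptors that carry or use an ITAM signalling motif had a median of 0.96 with 5 of 15 members risen. These were Fcgr1, Fcgr4, Fcgr3 and Fcer1g, the activating receptors for IgG and their shared γ chain, and Clec7a. Fcgr4 was tight within groups, at −0.08, 0.07 and 0.01 in naïve mice and 1.67 and 1.99 at 3 weeks (increase 1.80, SE 0.28, adjusted p = 0.00746). Fcer1g rose by 1.90 (SE 0.31, adjusted p = 0.00835). The inhibitory receptor Fcgr2b did not pass by its standing probe (1.91, adjusted p = 0.31), although 10 of its 12 probes did, and all 12 lay between 1.68 and 3.09. Trem2, a lipid receptor of microglia, was at 1.31 with an adjusted p of 0.054, and its second probe, at 1.07, passed.

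In the complement list 5 of 18 genes rose, and the median was 0.75. C1qa and C1qb, chains of the molecule that starts the classical pathway, rose by 1.11 and 1.62, whereas the third chain C1qc was at 0.63 (adjusted p = 0.13). C3ar1, the receptor for the C3a fragment, went from −0.25, 0.32 and −0.06 to 1.91 and 2.43 (increase 2.07, SE 0.34, adjusted p = 0.00816). Itgb2 and Itgax, which together form complement receptor CR4, rose by 1.47 and 1.81, although the second probe of Itgax gave 0.09. Naïve and 3-week mice of these 5 genes did not overlap, which held for all probes past the threshold and 28.3% of all measured. Across the list 16 of 18 genes were above 0, and at its lower end stood Cfp at 0.00 and Cd59a at −0.21.

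Among genes of phagocytes loaded with lipid, 5 of 22 rose (median 0.69, and 0.41 without 3-week mouse 2). Beside Clec7a and Ch25h these were Msr1, a scavenger receptor for modified lipoprotein, at 2.89 (SE 0.59, adjusted p = 0.0254), Itgax, and Abca1, which exports cholesterol to lipoprotein, at 1.63 (SE 0.29, adjusted p = 0.0121). Abca1 read −0.58, 0.45 and 0.13 in naïve mice and 1.64 and 1.85 at 3 weeks. Other genes of lipid handling did not pass, with Lpl at 1.37, Apoe at 0.65, Abcg1 at 0.13 and Gpnmb at −0.04. Of 18 lysosomal genes, Ctss, Ctsc and Lamp2 rose by 1.55, 2.19 and 1.26, Lamp2 by 1 of 3 probes, of which the lowest gave −0.09. Ctss, a protease that trims the MHC class II invariant chain, gave 1.62 and 1.61 in the 3-week mice against −0.38, 0.29 and 0.10. In the list of antigen presentation, 4 of 20 rose (median 0.72), namely the costimulator Cd86 (1.03), H2-Oa (0.81), B2m (1.06) and the immunoproteasome subunit Psmb9 (1.5). The class II chains H2-Aa and H2-Ab1 stood at 1.94 and 1.34 with wider errors and did not pass by their standing probes (adjusted p = 0.093 and 0.14), although 2 of the 13 probes of H2-Ab1 did.

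Promoter sequences of RefSeq (GRCm38.p6, 250 bases before to 50 after the first listed start) were matched to 15306 of the 19087 genes, among them 161 of the 215 that rose and 11 of the 14 that fell. The motif of PU.1, searched as GAGGAAGT on both strands, was found in 20 of the 161 (12.4%) and in 2.78% of all promoters. The AP-1 motif TGANTCA was found in 22 (13.7%) against 6.87%, and the NF-κB motif (GGGA, any 2 bases and TTCC) in 5 (3.11%) against 1.43%. None of the 11 promoters of genes that fell held any of these. These are counts of letters and not of bound sites, and they were not tested. The promoters of Ctss and Fcgr4 are shown because each holds both a PU.1 match and a match to the interferon response motif (GAAA, any 2 bases and GAAA), in capitals, the PU.1 match being read on the other strand.
Ctss, chr3:95526536-95526835, plus strand: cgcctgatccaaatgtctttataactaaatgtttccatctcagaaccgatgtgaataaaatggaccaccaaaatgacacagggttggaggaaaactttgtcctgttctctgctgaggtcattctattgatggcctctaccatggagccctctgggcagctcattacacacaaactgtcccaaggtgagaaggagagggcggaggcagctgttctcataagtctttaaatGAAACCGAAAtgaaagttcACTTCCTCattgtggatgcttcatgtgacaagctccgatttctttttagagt
Fcgr4, chr1:171018676-171018975, plus strand: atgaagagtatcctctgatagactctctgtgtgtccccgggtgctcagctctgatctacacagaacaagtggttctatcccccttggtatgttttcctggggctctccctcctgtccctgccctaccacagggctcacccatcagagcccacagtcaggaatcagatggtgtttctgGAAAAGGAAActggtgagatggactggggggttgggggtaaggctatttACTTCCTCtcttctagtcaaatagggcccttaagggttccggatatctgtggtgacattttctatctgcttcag

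Chemokines and their receptors formed the list with the most genes risen by count, 10 of 31 (32.3%) with a median of 0.90. By share, the lists of ITAM receptors (33.3%) and interferon-stimulated genes (32%) were close to it. The chemokine genes that rose were Ccl2, Ccl3, Ccl4, Ccl5, Ccl6, Ccl12, Cxcl9, Cxcl10, Cxcl16 and the receptor Cxcr6. Ccl5, which attracts T cells and monocytes, read −0.20, −0.01 and 0.21 in naïve mice and 1.92 and 3.47 at 3 weeks (increase 2.63, SE 0.40, adjusted p = 0.00654). Ccl12 differed more between its 3-week mice, at 2.09 and 4.19 (increase 2.96, SE 0.59, adjusted p = 0.021). Ccl2, the main ligand of the monocyte receptor Ccr2, rose by 2.35, and all 10 of its probes passed, at 2.24 to 2.55. Cxcl16 and its receptor Cxcr6 rose by 2.03 and 1.14. Ligands of the neutrophil receptor Cxcr2 did not pass, with Cxcl1 at 0.90, Cxcl2 at 0.45 and Cxcl5 at 0.11. Cx3cl1 and Cxcl14 stood at −0.24 and −0.01. The probes of Cxcl12 disagreed in sign, at −0.35 for the standing probe and 0.49 for the other, and neither passed.

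Interferon-stimulated genes had a median of 0.99, and 8 of 25 rose. These were the chemokines Cxcl9 and Cxcl10, Ifit1, which binds foreign RNA, the GTPases Gbp3 and Igtp, Oas1a, a sensor of double-stranded RNA, and Isg15 and Usp18, a ubiquitin-like modifier and the protease that removes it. Usp18 read −0.60, 0.28 and 0.33 in naïve mice, and 1.63 and 3.59 at 3 weeks (increase 2.46, SE 0.44, adjusted p = 0.0118). Ifit1 went from −0.50, 0.38 and 0.12 to 1.42 and 3.21 (increase 2.15, SE 0.41, adjusted p = 0.0179). Cxcl9 moved from −0.23, −0.06 and 0.28 to 1.56 and 3.00 (increase 2.23, SE 0.34, adjusted p = 0.00744). In each of these, mouse 2 was far above mouse 1. Over the list, 23 of 25 genes were higher in mouse 2, with a median of 1.48 against 0.63 in mouse 1, whereas naïve medians were −0.23, 0.10 and 0.26. Left out in turn, mouse 1 gave a median of 1.49 with 10 genes risen and mouse 2 a median of 0.57 with 0. Isg15 and Igtp rose by 1.78 and 1.80, while Mx1 (0.73) and Stat2 (0.13) did not pass. Probes of 1 gene disagreed for Oasl2, Irf9 and Irgm1, which stood at 0.21, 0.17 and −0.02 by their standing probe although another probe of each rose, at 1.83, 1.16 and 1.42.

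This interferon response motif was found on either strand in 23 of the 161 promoters of genes that rose (14.3%), in 3.32% of all promoters, and in 13 of the 20 matched interferon-stimulated genes (65%). Of the 7 matched members that rose, 6 held it. Because the list is defined by the response to interferon, this share describes the list and not the injury. Promoters of 3 members that rose are shown, with matches in capitals. Both Ifit1 matches are read on the other strand, the 3 of Isg15 overlap, and in Cxcl10 the capitals mark, in order, the interferon response, NF-κB and AP-1 motifs.
Ifit1, chr19:34640639-34640938, plus strand: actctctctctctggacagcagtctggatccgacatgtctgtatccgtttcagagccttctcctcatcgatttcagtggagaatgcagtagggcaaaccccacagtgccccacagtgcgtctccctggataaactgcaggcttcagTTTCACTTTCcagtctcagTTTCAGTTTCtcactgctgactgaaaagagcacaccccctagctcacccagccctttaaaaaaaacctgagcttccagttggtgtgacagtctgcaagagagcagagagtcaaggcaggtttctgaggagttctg
Isg15, chr4:156200769-156201068, minus strand: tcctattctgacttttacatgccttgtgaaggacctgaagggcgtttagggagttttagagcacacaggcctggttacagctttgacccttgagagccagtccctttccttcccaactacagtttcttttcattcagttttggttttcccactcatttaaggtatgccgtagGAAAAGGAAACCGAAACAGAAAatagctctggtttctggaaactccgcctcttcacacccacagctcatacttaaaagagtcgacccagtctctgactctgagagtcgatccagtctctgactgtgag
Cxcl10, chr5:92348840-92349139, minus strand: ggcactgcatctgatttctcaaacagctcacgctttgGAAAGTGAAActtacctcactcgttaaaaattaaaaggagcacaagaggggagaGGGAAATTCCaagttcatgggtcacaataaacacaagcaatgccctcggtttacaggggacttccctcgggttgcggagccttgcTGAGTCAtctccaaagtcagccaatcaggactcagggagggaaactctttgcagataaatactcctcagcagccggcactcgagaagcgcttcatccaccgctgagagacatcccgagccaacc

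**Figure D3:**
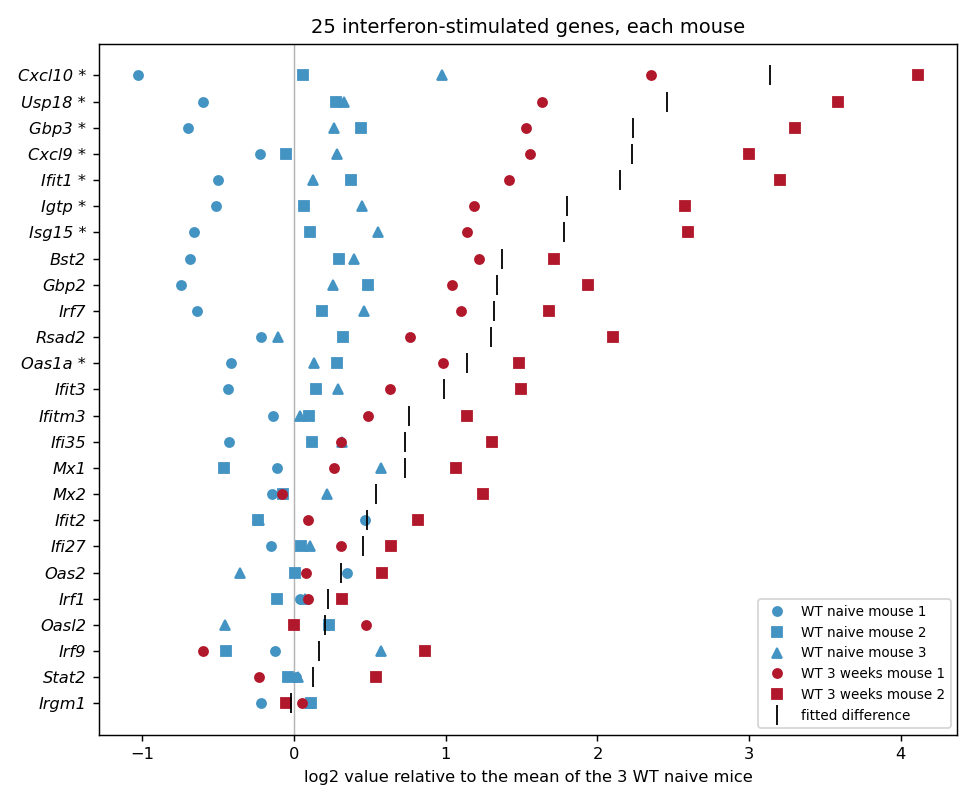
The 25 interferon-stimulated genes, 1 row per gene, with the log2 value of each mouse relative to the mean of the 3 naïve WT mice on the horizontal axis, naïve mice in blue, 3-week mice in red, the fitted difference as a black bar and an asterisk for the 8 genes that rose. The squares of 3-week mouse 2 lie right of the circles of mouse 1 in 23 of the 25 rows.

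Of 25 genes of NF-κB, TNF and interleukin-1 signalling, 3 rose and the median was 0.40, which became 0.23 without 3-week mouse 2 and 0.25 without naïve mouse 1. Il1b, the cytokine interleukin-1β, read −0.37, 0.20 and 0.17 in naïve mice and 1.61 and 1.87 at 3 weeks (increase 1.68, SE 0.26, adjusted p = 0.00746), with 8 of its 10 probes past the threshold. Tlr2, a receptor for bacterial lipoproteins, rose by 1.75 and all 10 of its probes passed. Tnfaip3, which restrains NF-κB signalling, rose by 0.87. The cytokine genes Tnf and Il6 stood at 0.39 and 0.28, and the inhibitor Nfkbia at −0.13, none past the threshold. Among cell death genes 4 of 21 rose (median 0.34), all of them parts of inflammasomes or of the pyroptosis they set off, or close relatives. The median was 0.93 without 3-week mouse 1, 0.16 without mouse 2, and 0.13 and 0.60 without naïve mice 1 and 2. Casp1, the protease that matures interleukin-1β, rose by 1.43 (SE 0.24, adjusted p = 0.00829) and Casp12 by 2.30 (SE 0.38, adjusted p = 0.00835). The adaptor Pycard and the pore-forming Gsdmd rose by 1.5 and 0.92. The sensors Nlrp3 and Aim2 were at −0.25 and −0.06, and the apoptosis genes Bbc3, Bak1 and Casp9 at 0.12, 0.11 and −0.08. Other apoptosis genes were higher. All 11 probes of Fas lay between 0.46 and 1.06 and 1 passed, Cflar had 1 of 7 past the threshold, and Bcl2a1b, outside the list, rose by 2.51.

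Genes of reactive astrocytes had a median of 1.13, which was 0.68 with 0 risen when 3-week mouse 2 was left out, and 4 of 25 rose. Ptx3, a soluble pattern receptor, rose by 2.31 (SE 0.47, adjusted p = 0.0235), Timp1, an inhibitor of metalloproteinases, by 2.17 (SE 0.45, adjusted p = 0.0278) and the cross-linking enzyme Tgm1 by 1.97 (SE 0.43, adjusted p = 0.0363). The fourth was Cxcl10, which other cells also make, and it is also counted among the chemokines and interferon-stimulated genes. Gfap, the filament of astrocytes, was at 1.06 (SE 0.37, adjusted p = 0.27), with naïve mice at −0.24, 0.09 and 0.15 and 3-week mice at 0.89 and 1.31. Its groups did not overlap, as in 28.3% of all probes, but its error left it short of the threshold. Serpina3n (1.07), Serping1 (1.30) and Lcn2 (1.73) also missed it, and Vim, another filament gene, stood at −0.31. Genes of astrocyte identity had a median of 0.08 with 0 of 16 risen, and ran from −0.13 for Glul to 0.64 for the transcription factor Sox9 (adjusted p = 0.18, with 1 of its 13 probes past the threshold).

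In the lists of neuronal genes most values were slightly below 0, and none passed by its standing probe. Of 23 neuron markers, 21 were below 0 with a median of −0.23. The neurofilament chains Nefm, Nefh and Nefl were at −0.90, −0.53 and −0.53, with adjusted p-values of 0.38, 0.69 and 0.19. Lists of synaptic vesicle release and inhibitory neurons had medians of −0.23 and −0.26. The vesicle GTPase Rab3a was the lowest synaptic gene, at −0.55 (adjusted p = 0.082), and Syngr1 stood at −0.35 although another of its probes rose, at 0.65. Mouse by mouse the neuron median was 0.12, −0.05 and −0.06 in naïve cords and −0.17 and −0.25 at 3 weeks, so the groups were apart by little. Without 3-week mouse 2 the medians of the neuron, synaptic and inhibitory lists were −0.10, −0.12 and −0.16. Cholesterol synthesis had the lowest median of the lists, −0.28, and 18 of its 19 genes were below 0. Its lowest members were Idi1 (−1.05, SE 0.25, adjusted p = 0.059), Fdps (−0.82, adjusted p = 0.074) and Msmo1 (−0.79, adjusted p = 0.19), enzymes on the way from mevalonate to sterols. Genes of myelin and mature oligodendrocytes had a median of −0.11, from Fa2h at −0.53 to Nkx6-2 at 0.38, with the main structural protein Mbp at −0.09. Oligodendrocyte precursors gave a median of 0.09. With 1 mouse left out at a time these medians ran from −0.19 to −0.01 and from 0.00 to 0.08. By their standing probes 0 members of these lists passed in either direction.

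Few genes of scar matrix, vessels and other cells passed. Among 28 collagens and matrix genes only Postn rose, a matricellular protein of fibrotic scars, by 1.64 (adjusted p = 0.0083), with its second probe at 0.40, while Col1a1 was at 0.71 (SE 0.64) and Col4a1 at 0.02. Atf3, a transcription factor of injured neurons that other cells also express, was the 1 gene of 19 to rise in the list of axon regeneration, by 1.85 (SE 0.35, adjusted p = 0.018), beside Sprr1a at 1.78 (adjusted p = 0.057). Cd79b, of the B-cell receptor, was the only one of 15 lymphocyte genes to rise (0.93), and the T-cell chains Cd3e, Cd3d and Cd3g stood at −0.12, 0.42 and 0.52. Chondroitin sulfate proteoglycans and guidance cues had medians of −0.07 and −0.09 with 0 risen. Among pericyte and Schwann cell genes 1 each rose, Tagln and Fgl2.

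Markers of neutrophils, meningeal fibroblasts and endothelial cells stood apart in naïve mouse 2. This mouse was also the naïve mouse on the array of both groups. Its median was 0.83 for neutrophil genes against −0.52 and −0.38 in the other naïve mice, 0.50 for meningeal fibroblasts against −0.37 and −0.16, and 0.34 for endothelial cells against −0.28 and −0.13. Without it the median difference at 3 weeks moved from 0.11 to 0.95 for neutrophils, from 0.07 to 0.46 for fibroblasts and from −0.19 to 0.14 for endothelial cells. Mouse 2 was also the highest naïve mouse for collagens (0.32 against −0.37 and −0.05), pericytes (0.29 against −0.12 and −0.14) and Schwann cells (0.39 against −0.32 and −0.12). Without it the collagen median moved from 0.08 to 0.29 with 2 genes risen, and that of pericytes from −0.04 to 0.13. For ependymal genes naïve mouse 2 was the lowest, at −0.45 against 0.11 and 0.26. The part of these markers in other results was not tested. The microglia and macrophage median was 0.97 with it and 1.04 without it. Csf3r, the receptor for a granulocyte growth factor, was the 1 neutrophil gene to rise (1.29, SE 0.26, adjusted p = 0.026), while the granule genes Mpo, Ltf and Elane stood at −0.36, −0.33 and 0.26. Genes of erythrocytes had a median of 0.00.

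**Figure D4:**
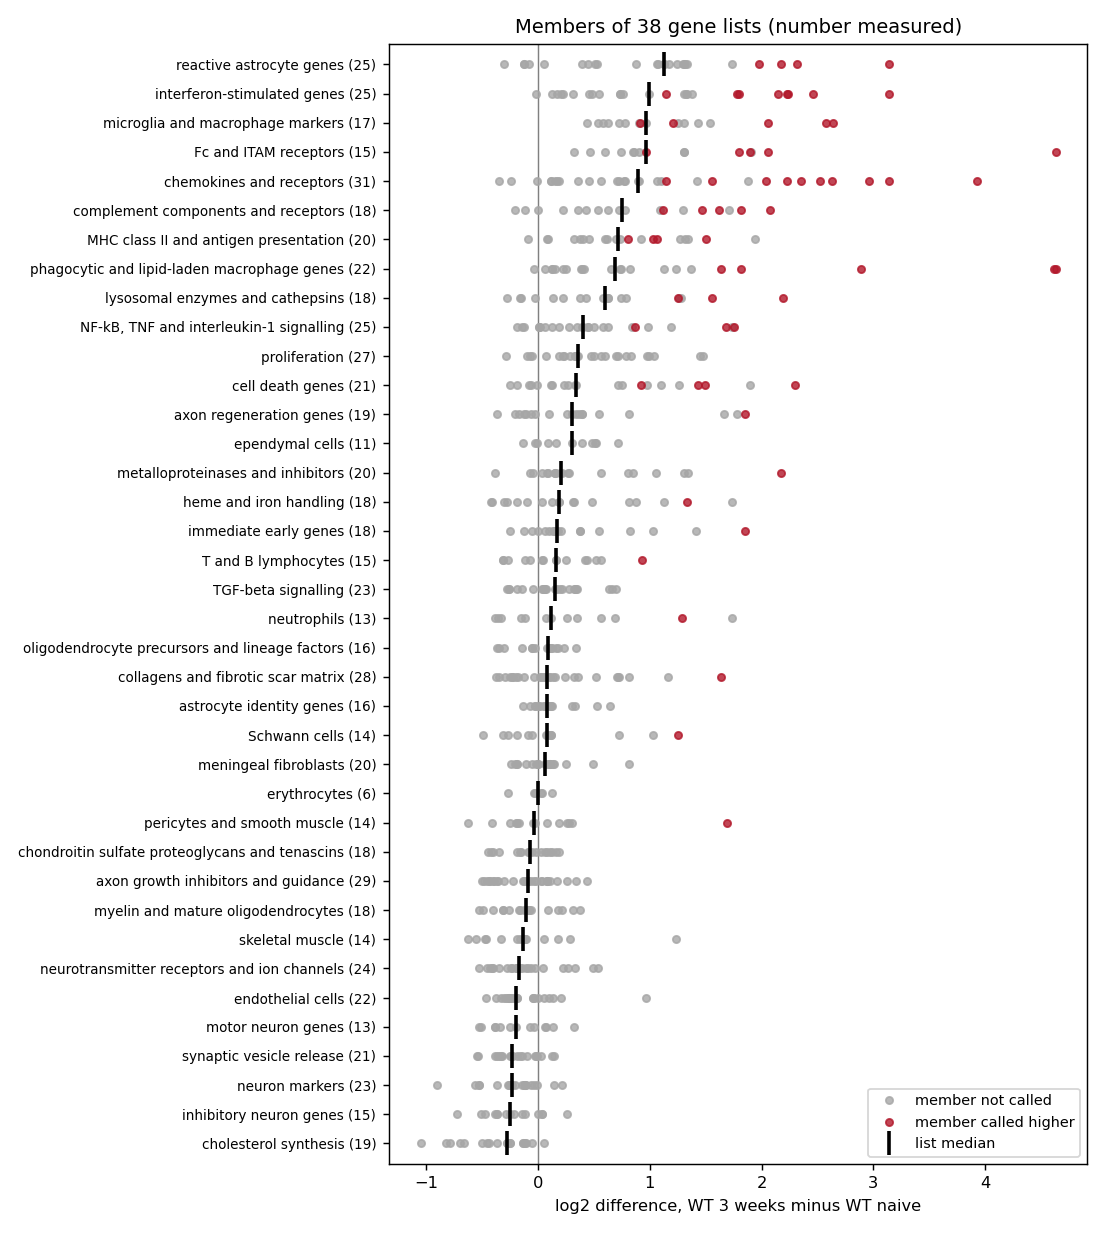
Each point is a measured gene of 1 of 38 lists, placed by its fitted log2 difference (WT at 3 weeks minus WT naïve), with genes that rose in red and the list median as a black bar. Medians run from 1.13 for reactive astrocyte genes to −0.28 for cholesterol synthesis, and the red points lie mainly in the lists of myeloid cells, chemokines and interferon.

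Of 17 measured genes that the study follows, none passed at 3 weeks by its standing probe. Icam1, an adhesion molecule for leukocytes, came nearest at 1.74 (SE 0.41, adjusted p = 0.0538), from −0.73, 0.52 and 0.21 in naïve mice to 1.59 and 2.17, and 5 of its 11 probes passed. Cd200r1 was at 1.46, Tlr4 at 1.19 with 3 of 11 probes past the threshold, Tnfrsf1b (the TNF receptor TNFR2) at 0.98 with 3 of 11, and Itgam (CD11b) at 0.78. Cxcr4, the receptor for Cxcl12, was at 0.77 (SE 0.24, adjusted p = 0.192) by its standing probe and at 1.40 by its second, which passed. Mki67, a marker of dividing cells, differed between the 3-week mice, at 0.57 and 1.59 (difference 0.97, SE 0.43, adjusted p = 0.457). The myelin enzyme Cnp and the inhibitor of myelination Lingo1 stood at −0.09 and −0.36. Foxc2 had naïve values from −1.42 to 2.42, with mouse 2 the highest, and an SE of 0.87.

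The 3-week cords were then compared with WT cords at 3 days and at 6 weeks. Against 3 days, 0 of 43379 probes passed in limma, and 1 passed when arrays were taken as independent. At an unadjusted p under 0.05 there were 3629 probes, against 2169 expected by chance. The smallest p-values among genes higher at 3 weeks were those of Ecrg4 (0.95, SE 0.16, adjusted p = 0.151), the matrix protein Mamdc2 (1.03, SE 0.20), Ifit3b (1.43, SE 0.27), Ifit1 (2.13, SE 0.42) and Spam1 (0.80, SE 0.17). Of these 5, Ifit1 and Ifit3b belong to the interferon-induced Ifit family, in which probes may not separate near-identical copies. Lower at 3 weeks were Ssxb1 (−1.13, SE 0.19), Tatdn2, Fanca, Bora and Arrdc2, of which Fanca serves DNA repair and Bora mitosis. Above naïve, the interferon list had a median of 0.50 at 3 days, which stood at 0.99 by 3 weeks and 0.58 by 6 weeks, with 0, 8 and 1 of 25 genes risen. Without 3-week mouse 2 its value at 3 weeks was 0.57 with 0 risen, which is level with 6 weeks. For proliferation the order was different, with 1.00, 0.35 and 0.27 and 10, 0 and 0 of 27 genes risen, and its value at 3 weeks became 0.77 without mouse 1 and 0.11 without mouse 2. Reactive astrocyte genes gave 0.71, 1.13 and 0.81, and microglia and macrophage markers 0.70, 0.97 and 0.93. All 3 times share the same naïve mice, and the differences between these list medians were not tested.

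Against 6 weeks, 1470 probes had an unadjusted p under 0.05 in limma, fewer than the 2169 expected by chance. Here too 0 probes passed the threshold, and 2 passed it when arrays were taken as independent. Colec10 was nearest to it. Its difference from naïve was 2.98 at 3 days, 3.61 by 3 weeks and 0.81 by 6 weeks, and it was lower at 6 than at 3 weeks by a difference of −2.80 (SE 0.40, adjusted p = 0.0879). The other genes with the smallest p that were lower at 6 weeks were the milk protein Csn3 (−1.42, SE 0.27), prolactin Prl (−3.85, SE 0.78), parathyroid hormone Pth (−0.92, SE 0.22) and the mitochondrial cholesterol carrier Star (−1.58, SE 0.39). Duxbl1, Plac9a, Gm45351, Pdilt and Slc22a22 led the genes higher at 6 weeks, by 0.60 to 1.34. Cholesterol synthesis had a median of −0.03 at 3 days, −0.28 by 3 weeks and −0.48 by 6 weeks, with 4 genes past the threshold at 6 weeks only.

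**Figure D5:**
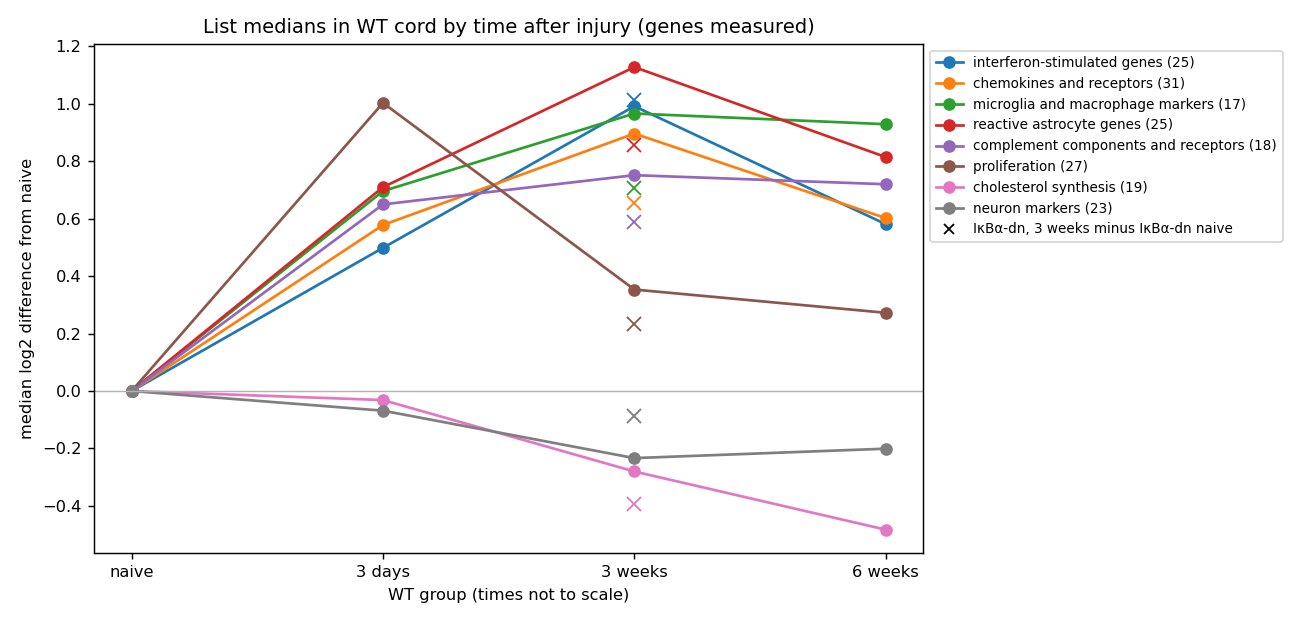
Median fitted log2 difference from naïve (vertical axis) of 8 gene lists in WT cords by time after injury (horizontal axis, not to scale), with crosses for IκBα-dn cords at 3 weeks against IκBα-dn naïve cords. The proliferation list is highest at 3 days with 1.00 and the interferon list at 3 weeks with 0.99, which becomes 0.57 without 3-week mouse 2, and the crosses lie on the same side of 0 as the WT values at 3 weeks.

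Whether the change from naïve to 3 weeks differed between WT and IκBα-dn cords was tested directly as the difference of both changes. In limma 0 probes passed, and 0 also when arrays were taken as independent. At an unadjusted p under 0.05 there were 621 probes, fewer than the 2169 expected by chance. Within IκBα-dn mice the same contrast had 275 probes past the threshold. The chemokine Ppbp had one of the smallest p-values among genes whose change was more positive in IκBα-dn mice, with changes of 1.30 in IκBα-dn and −0.35 in WT cords (difference 1.65, SE 0.38), and naïve WT mice spread from −0.74 to 0.82. Taf1d, Epas1, Pkdrej and Arrdc2 were the others. In the opposite direction stood Prm1, with changes of 1.52 in IκBα-dn and 4.73 in WT cords (difference −3.21, SE 0.96), and Mycn, Ly6k, H2ac6 and Rpgrip1. The interferon list had a median of 1.01 in IκBα-dn and 0.99 in WT cords, with 9 and 8 genes risen. Microglia and macrophage markers had medians of 0.71 and 0.97, with 3 and 5 risen. These p-values do not show that the genotypes were alike, since the median SE of the difference was 0.229.

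Genes with many probes give a view of the error within the arrays. Fcgr2b and Ccl2 were described above. Afp, a fetal plasma protein, had 9 of 10 probes past the threshold, with all 10 between 1.35 and 1.66, and B2m 9 of 12. Ptprc had 11 of 13, although 1 probe gave 0.05. Among genes with at least 1 probe that fell were Mmp9 with 2 of 11 (all 11 between −0.73 and −0.38) and Vegfa with 2 of 12 (all between −0.53 and −0.26). Chgb had 1 of 11 (−0.54 to −0.14), and Rnf170 1 of 5 with probes that disagreed in sign (−0.82 to 0.07). Probes also disagreed in sign for Dock8 (1 of 8 rose, −0.39 to 1.00) and Tlr4 (3 of 11 rose, −0.65 to 1.44). Of genes that rose by their standing probe, Adgre1 and Fcer1g had a second probe that did not pass, at 1.07 and 0.91, and Msr1 passed with 1 of 3, the lowest at 1.19. Among the decreases, the second probes of Kif5a and Fn3k gave −0.28 and −0.11 and did not pass. A gene read by 1 probe only, as Clec7a, Ccl4 and Colec10 were, has no such check. Probes of 1 gene read RNA of the same mice, so their accord is no check on the spread between mice.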

How the data were processed

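RNA of 23 mice was compared on 21 of 22 2-colour arrays (6 slides). According to the methods, the authors filtered spots for quality and normalized in limma, by lowess inside each array and by quantiles across them. The log2 ratios of 43379 probes were used as deposited by the authors. Their direction is not stated and was taken as Cy5 over Cy3, which places genes of inflammation above naïve after injury. Array medians ran from −0.08 to 0.05 and array SDs from 0.37 to 0.74, and the lowest correlation between 2 arrays was −0.32. No other per-sample columns were left out. Precision is limited by how few mice there were, and spot brightness was not analysed here.

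Group differences were fitted with limma 3.58.1 in R 4.3.3, as the group of the Cy5 mouse minus that of the Cy3 mouse plus 1 dye term, and with arrays of the same mouse treated as correlated (share of variance 0.432). Residual degrees of freedom were 13, with 16.2 after moderation. Benjamini-Hochberg adjustment ran over all probes of a comparison, with a threshold of 0.05. The median SE was 0.196. A dye effect passed at 58.3% of probes, and at 207 of the 463 that rose or fell. Each p-value rests on a residual spread pooled over the 21 arrays and 8 groups, of both genotypes. It does not measure the spread among the 2 mice at 3 weeks or the 3 naïve mice alone.

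One gene symbol is given for 33653 probes, several for 56 and none for 9670, and the probe with the lowest number stands for a gene. By rule, the text names the 10 largest changes in each direction, up to 4 members of a list by p, the 17 study genes and 5 genes a direction in the other comparisons. Other members were named after their values were seen. Members and lists (744 genes, 681 measured) were chosen with earlier results of these data known. On simulated data (200 changed probes, 5 runs) the fit for 3 weeks against naïve, over 43379 probes, found 14.6% of changes of 1.5-fold, 52.5% at 2-fold and 83.9% at 3-fold, with 5.82% of calls false. The simulated errors were drawn from the fitted model, with every mouse varying alike. These rates therefore do not cover the dependence on 3-week mouse 2. Python 3.11.15 with matplotlib 3.10.9 drew the figures.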

Additional observations from a re-analysis of the deposited data

How the results depend on the processing

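The 463 probes that passed between WT cords at 3 weeks and naïve became 800 with arrays taken as independent, 774 with arrays scaled to 1 spread, 264 with a dye term per slide, 282 without the array of both groups, 254 from the 5 arrays of WT mice only, 288 with moderated F statistics over the 8 groups at an adjusted p under 0.001 and a fold over 2, 296 without the array with the largest residuals (an alternative chosen after seeing the data), 122 at an adjusted p under 0.01 and 1 at an adjusted p under 0.001 with a fold over 2. With 1 mouse left out at a time the count ran from 1, without WT 3-week mouse 2, to 271, and was 268 without mouse 1 and 200, 210 and 271 without naïve mice 1, 2 and 3. Where 1 mouse was left in a group, it was assumed to vary like the others. The counts were 522 and 665 when the array whose labels conflict was read as 3 days or 3 weeks, 368 without a dye term, 571 with arrays centred on their median, 445 with robust moderation and 511 with probes of 1 symbol. All 463 probes kept their sign under each of these settings, except that the filter on 1 symbol left 430 of them to compare, all with the same sign. Every setting reuses arrays of the main fit, so the signs are no independent check. The cause of these differences was not tested, except that leaving out mice or arrays leaves fewer data. With the replicate number as a block 125 probes passed, 124 of them among the 463. The numbers pair no mice in the labels. Deviations of same-numbered mice from their group means correlated at −0.0689 and −0.255. With 2 mice at 3 weeks their deviations mirror each other, so these values cannot show whether the numbers pair mice.

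Against 3 days the count of 0 became 1 with independent arrays, 3 with scaled arrays and 2 without the array with the largest residuals, and 0 to 2 with a mouse left out. For 6 weeks against 3 weeks it became 2 with independent arrays, 1 without a dye term, 2 with the conflicting array read as 3 weeks, 2 with scaled arrays and 1 without the array of both groups, and stayed 0 with any mouse left out. The genotype difference stayed at 0 under all settings that give it, and WT arrays alone give none.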

Other observations

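The genes in this paragraph were picked after their values were seen, and no theme is claimed for them. The milk protein gene Csn3 read −0.08, 0.12 and −0.05 in naïve mice and 1.72 and 1.80 at 3 weeks (increase 1.73, adjusted p = 0.00484), and its second probe gave 3.05. Above naïve it stood at 0.83 at 3 days, 0.31 at 6 weeks and, in IκBα-dn mice, 1.79 at 3 weeks. Pth, the parathyroid hormone, rose by 0.96 (SE 0.20, adjusted p = 0.0243), with 3-week mice at 0.76 and 1.18. It was at 0.09 at 3 days, 0.04 at 6 weeks and 0.90 in IκBα-dn mice at 3 weeks. The pituitary hormone Prl was at 2.83 (SE 0.70, adjusted p = 0.067), but its naïve mice ran from −1.26 to 1.86, which leaves 3-week mice at 2.77 and 2.30 only just above the highest of them. Probes of 1 gene also disagreed for the immediate early gene Junb, at 0.20 by its standing probe and 1.10 by the other, which passed.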
